A study of Arabidopsis thaliana with 12 samples.

Results

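Gene expression in estradiol-treated roots was compared with that in DMSO-treated roots of Arabidopsis thaliana seedlings on 6 of the 12 arrays of the series. The comparison took the 3 arrays titled as estradiol roots and the 3 titled as DMSO roots, and covered all 16550 genes that a probe set measures alone. Every group carried the same construct, an estradiol-inducible CLE2 overexpressor, and was made of 7-day-old seedlings grown upright at 22 °C under continuous light. In the estradiol groups the roots received β-estradiol, labelled as 5 mM, for 24 h, and in the DMSO groups the solvent. Roots and shoots were then collected apart, so that the 6 shoot arrays come from the same kinds of seedlings. No group given estradiol lacked the inducible gene, so effects of estradiol and of CLE2 induction cannot be told apart. The treatment text is identical for all samples and names only estradiol. The treatments therefore rest on the sample titles and the treatment label. The labels do not state the promoter behind the inducible system or the number of lines and pooled plants, and they do not say whether replicates came from separate cultures. The p-values therefore reflect how far these particular samples spread, and part of that spread may be technical.

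CLE peptides are short secreted signals cut from larger precursors and read at the cell surface by leucine-rich repeat receptor kinases. CLE2 belongs to the group whose members are studied in roots for their links to nutrient supply, root growth and signalling between organs. In an estradiol-inducible system a chimeric transcription factor stays inactive until estradiol binds it, and it then switches on the gene placed behind its target promoter. No probe set paired with 1 gene measures CLE2, and its induction was not analysed here.

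The 6 root arrays were alike over all genes. Correlations between arrays ran from 0.991 to 0.994 within the root groups and from 0.991 to 0.993 between estradiol and DMSO roots, while no root array correlated above 0.87 with a shoot array. DMSO root replicate 3 had the highest shoot signal of the 6 root arrays in a set of genes chosen from the data. The median level of the 50 genes highest in DMSO shoots over DMSO roots 1 and 2 was 3.95, 3.74 and 3.84 in estradiol roots, against 3.71, 4.21 and 4.53 in DMSO roots, on the log2 scale, and 9.33 to 9.54 in shoots. This choice favours low levels in DMSO roots 1 and 2, whereas estradiol roots and DMSO root replicate 3 lie outside it. The nuclear genes of photosystems, light harvesting and the Calvin cycle did not set that array apart, with medians of 7.11, 7.35 and 7.30 in estradiol roots and 7.11, 7.37 and 7.29 in DMSO roots over 22 genes. Results are therefore given with and without DMSO root replicate 3. The 50 genes highest in DMSO roots 1 and 2 over DMSO shoots had medians between 9.70 and 9.74 in roots, against 3.32 to 3.60 in shoots. Their levels in DMSO roots 1 and 2 and in DMSO shoots are fixed by that choice. Arrays outside it gave 9.74, 9.70 and 9.71 in estradiol roots, 9.71 in DMSO root replicate 3, and 3.53 to 3.60 in estradiol shoots. The listed markers of the endodermis and Casparian strip, and of stele, meristem and root cap, had no measured member and were not analysed here.

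No single gene passed the test in roots. Limma called 0 of 16550 genes at a Benjamini-Hochberg adjusted p under 0.05 in either direction, a background of 0.0%, and the smallest adjusted p was 0.59. At an unadjusted p under 0.05, 394 genes were higher and 461 lower in estradiol roots, which is 2.38% and 2.79% of all genes, or 855 together where an even spread of p-values would give 827.5. With each array's median subtracted, the split was 582 higher and 303 lower. Without DMSO root replicate 3 the count of calls was again 0, with 331 higher (2.0%) and 367 lower (2.22%) at an unadjusted p under 0.05. All genes named below are thus described by their values and not as changed genes. The 3 estradiol values lay entirely above the 3 DMSO values in 875 genes (5.29%) and entirely below them in 1166 genes (7.05%). These shares are the background for the family counts that follow. Differences were small: the median absolute difference was 0.101 on the log2 scale, and the 99th percentile was 0.58. Only 2 genes were higher and 3 lower by at least 1 log2 unit, a 2-fold difference. In bulk tissue, fewer cells of a type and less RNA per cell cannot be told apart.

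**Figure D1:**
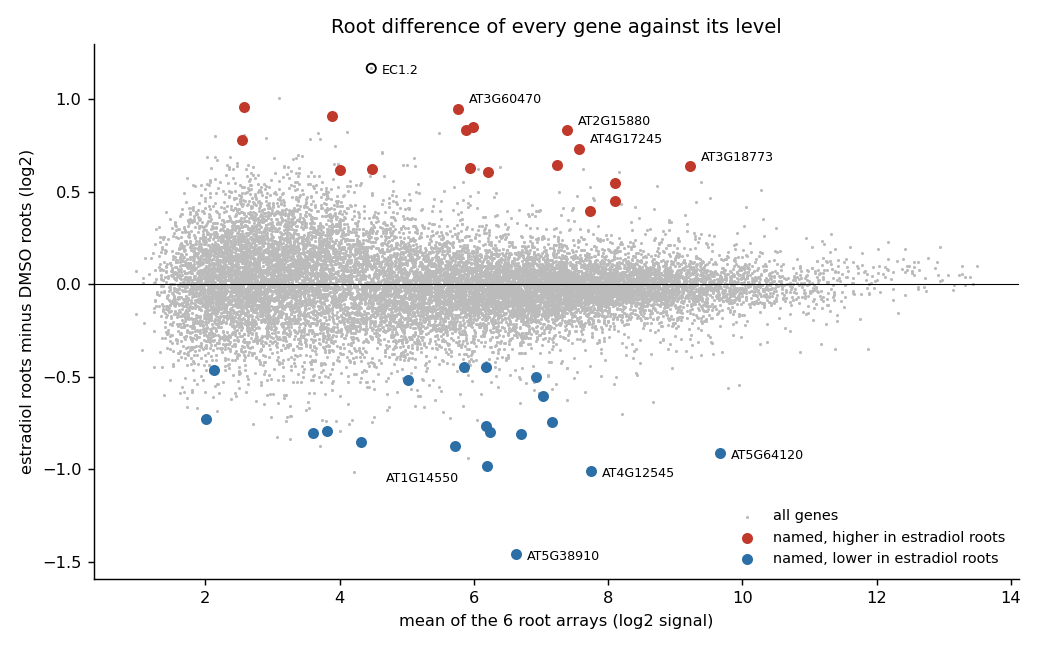
Each grey point is 1 of 16550 genes, with its mean over the 6 root arrays (log2 signal) on the x axis and estradiol roots minus DMSO roots (log2) on the y axis. Red and blue points are the 36 genes chosen by p or size; the highest difference of all, EC1.2 at 1.17, lies outside them and is circled, and AT5G38910 at -1.46 lies lowest.

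The 17 genes chosen by p or size above DMSO roots were all known by a locus code alone. Of the 16550 genes, 14745 have only such a code as their symbol in the reference gene table. Family names given to coded genes below come from general knowledge of Arabidopsis gene families, and coded genes outside these families are given without a role. AT4G17245 had 7.87, 8.13 and 7.79 in estradiol roots, against 6.94, 7.32 and 7.32 in DMSO roots. All estradiol arrays were above all DMSO arrays, by 0.73 ± 0.13 (log2 difference ± SE, n = 3 arrays each), a 1.66-fold difference with an adjusted p of 0.59. Its difference was 0.80 without DMSO root replicate 3. AT3G52070 had 8.42, 8.32 and 8.40 in estradiol roots, against 8.02, 7.78 and 7.69 in DMSO roots, a difference of 0.55 ± 0.10. AT5G25280 had 7.95, 7.85 and 7.98 in estradiol roots, against 7.56, 7.61 and 7.43 in DMSO roots, a difference of 0.40 ± 0.08. In both genes the estradiol values lay close together, and the groups were separate. AT5G59080 had 7.76, 7.45 and 7.46 in estradiol roots, against 7.00, 7.01 and 6.73 in DMSO roots, a difference of 0.64 ± 0.14, and AT4G14930 was 0.45 ± 0.11 higher. AT3G20360 had 6.35, 6.49 and 6.08 in estradiol roots, against 5.73, 5.28 and 5.41 in DMSO roots, a difference of 0.83 ± 0.18. It is a root-enriched gene, -2.27 log2 units in DMSO shoots relative to DMSO roots 1 and 2, arrays that also enter its root difference, whereas AT4G17245 was 4.63 higher in the shoots.

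Size picked out a partly different group among genes of at least median level. AT3G60470 had 6.15, 6.14 and 6.41 in estradiol roots, against 6.03, 4.46 and 5.36 in DMSO roots. Its DMSO values spread over more than 1 log2 unit, and the difference of 0.95 ± 0.35 had an adjusted p of 0.92. AT5G03090 had 6.56, 6.42 and 6.28 in estradiol roots, against 5.38, 5.20 and 6.12 in DMSO roots, a difference of 0.85 ± 0.23 that was 1.13 without DMSO root replicate 3. AT2G15880 had 8.12, 7.52 and 7.77 in estradiol roots, against 7.20, 6.93 and 6.79 in DMSO roots, a difference of 0.83 ± 0.25, and AT3G18773 had 9.68, 9.22 and 9.73 in estradiol roots, against 9.19, 8.84 and 8.69 in DMSO roots, a difference of 0.64 ± 0.17. Both of these also had higher means in estradiol shoots than in DMSO shoots, by 1.296 and 0.87. Neither passed the test in shoots, with an adjusted p of 0.090 each (limma). Dim genes gave 5 more members: AT1G31163, AT4G00651, AT1G02490, AT4G31196 and AT2G07440, with differences of 0.78, 0.91, 0.62, 0.96 and 0.62, all had means under 5 on the log2 scale. AT1G22690 and AT2G20670 complete the 17 and are given with their families. The highest difference of all, outside this choice by p or size, was that of EC1.2, which encodes a cysteine-rich peptide known from egg cells. EC1.2 had 5.22, 4.90 and 5.04 in estradiol roots, against 3.25, 4.22 and 4.20 in DMSO roots, a difference of 1.17 ± 0.28 and 1.32 without DMSO root replicate 3. Over the 17 genes named here as higher the adjusted p ran from 0.59 to 0.92. Without that array their differences were 0.746 to 1.33 times their full size; the sign is fixed by the choice of genes with separate groups.

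The genes furthest below DMSO roots included secreted and wall-linked proteins that are strongly root-enriched. AT5G38910, a germin-like protein gene, had 6.06, 6.06 and 5.56 in estradiol roots, against 6.92, 8.20 and 6.94 in DMSO roots. DMSO root replicate 2 was the highest of the 6, and the groups stayed apart at -1.46 ± 0.32, the lowest difference measured. AT4G12545, of the hybrid proline-rich lipid transfer-like family, had 7.40, 7.45 and 6.85 in estradiol roots, against 8.003, 8.47 and 8.26 in DMSO roots, a difference of -1.01 ± 0.19. AT5G64120, with peroxidase 71 among its synonyms in the gene table, had 9.66, 9.02 and 8.96 in estradiol roots, against 10.09, 10.12 and 10.17 in DMSO roots. The DMSO values were nearly equal, the estradiol values were all lower, and the difference was -0.91 ± 0.22 with an adjusted p of 0.71. These 3 genes were -3.62, -5.23 and -5.18 log2 units in DMSO shoots relative to DMSO roots 1 and 2. AT1G02360, a chitinase family gene, had 6.75, 6.83 and 6.61 in estradiol roots, against 7.36, 7.18 and 7.47 in DMSO roots, a difference of -0.61 ± 0.11. AT1G23160, a GH3 family gene, had 4.19, 3.85 and 3.63 in estradiol roots, against 4.78, 4.59 and 4.86 in DMSO roots, a difference of -0.86 ± 0.17.

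Further coded genes, given without a family, also had separate groups. AT5G12340 had 6.77, 6.96 and 6.64 in estradiol roots, against 7.31, 7.66 and 7.63 in DMSO roots, a difference of -0.75 ± 0.16, and AT5G06570 had 6.64, 6.90 and 6.49 in estradiol roots, against 7.24, 7.13 and 7.17 in DMSO roots, a difference of -0.50 ± 0.11. AT3G59340 and AT2G15220 were -0.88 ± 0.24 and -0.77 ± 0.26 in estradiol relative to DMSO roots. AT5G16010, AT3G10060, AT1G30140 and AT2G16505 had differences of -0.45, -0.52, -0.80 and -0.73, each with separate groups. Of the 19 genes named as lower, 3 carry a symbol. RPN12b, a proteasome lid subunit gene, had 3.48, 3.67 and 3.10 in estradiol roots, against 4.13, 4.31 and 4.20 in DMSO roots, a difference of -0.80 ± 0.14. Its far more abundant paralogue RPN12a stood at 11.14, 11.03 and 11.01 in estradiol roots, against 11.07, 11.12 and 11.00 in DMSO roots, with overlapping groups and a difference of -0.0045. STN1, a telomere-capping protein gene, had 5.99, 6.04 and 5.82 in estradiol roots, against 6.36, 6.33 and 6.50 in DMSO roots, a difference of -0.45 ± 0.09. NGA4, a B3-domain transcription factor gene of the NGATHA group, was at the dim end with 2.06, 1.84 and 1.79 in estradiol roots, against 2.36, 2.42 and 2.31 in DMSO roots. Without DMSO root replicate 3 the 19 differences were 0.882 to 1.14 times their full size, with a sign that their separate groups fix.

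**Figure D2:**
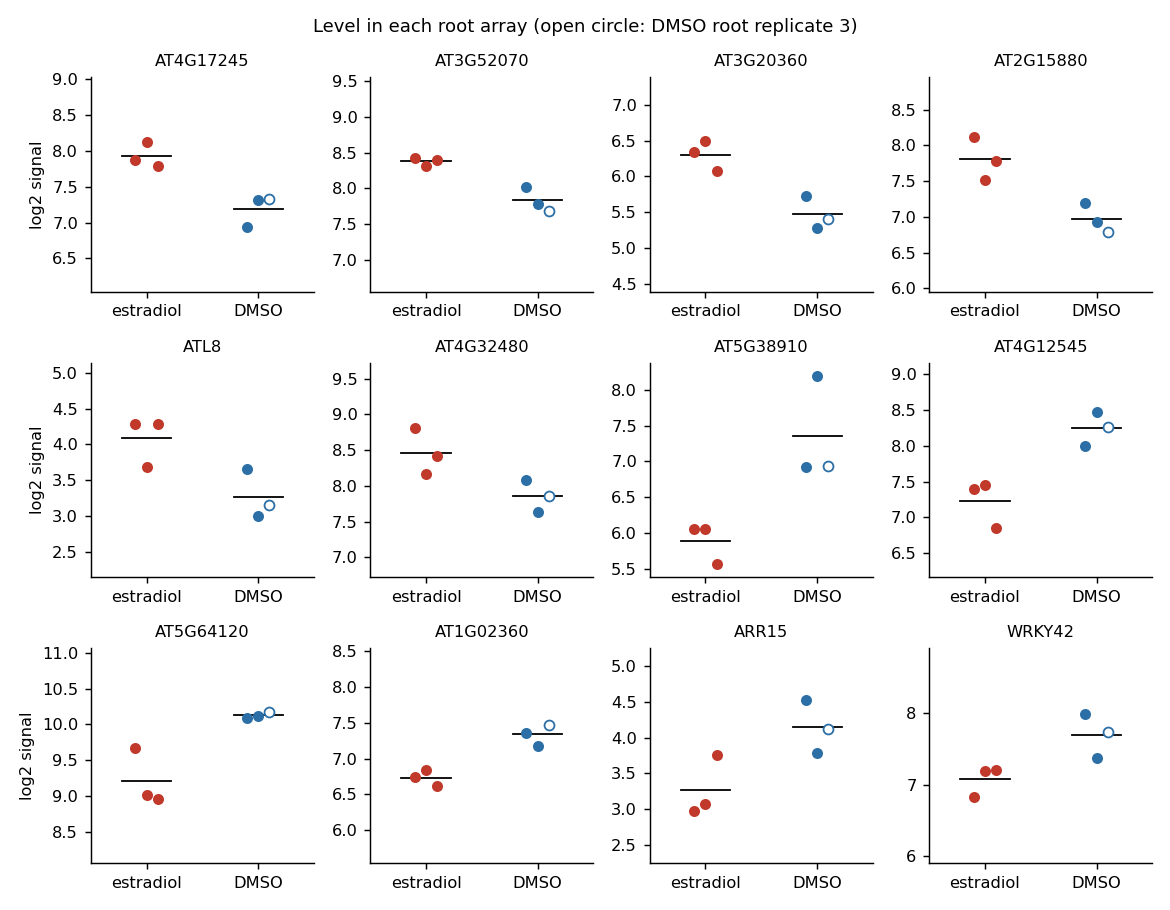
Log2 signal of 12 genes in each root array, estradiol on the left and DMSO on the right of each panel, with a line at the group mean and an open circle for DMSO root replicate 3; every panel spans 3 log2 units. In all 12 genes the groups are separate, from 0.83 in AT3G20360 to -1.46 in AT5G38910.

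Families are described next by list medians, and 33 of the 64 lists with at least 3 measured genes had a median that turned sign when 1 array was left out. All 33 had medians within 0.1 of 0, and no direction is read from them. Many lists, among them the WRKY, Aux/IAA, subtilase and UDP-glycosyltransferase lists, were gathered by gene symbol. Measured members known by a locus code alone can be missing from those lists and their counts. Most measured CLE peptide genes lay close to their DMSO levels. The CLE family had 17 measured genes with a median difference of -0.01, close to the -0.01 of all genes, and of these 7 were above 0. CLE44, a precursor of the TDIF peptide that acts in vascular tissue, was the member with the smallest p and was chosen after its values were seen. CLE44 had 7.26, 6.75 and 7.25 in estradiol roots, against 6.80, 6.64 and 6.72 in DMSO roots, overlapping groups with a difference of 0.37 ± 0.14 and an adjusted p of 0.94. CLE25, known as a root-to-shoot signal in drought, had 6.18, 6.23 and 6.07 in estradiol roots, against 6.28, 6.49 and 6.31 in DMSO roots, a difference of -0.20 ± 0.11. The groups of CLE21 were also separate, near the bottom of the scale, at a difference of 0.11 ± 0.18. CLE1, from the same group of CLE peptides as CLE2, differed by -0.25 ± 0.16, and CLE14 by -0.29 ± 0.20, both with overlapping groups. Without DMSO root replicate 3 the family median was -0.06.

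Among other secreted peptides, the 18 RALF genes, ligands of malectin-like receptor kinases, had a median of 0.05 and 0 members at an unadjusted p under 0.05. The median was -0.01 without DMSO root replicate 3, and 1 member was then higher at that p. RALFL22 had 6.38, 6.06 and 6.22 in estradiol roots, against 6.50, 6.57 and 6.76 in DMSO roots, the sole member with separate groups, at -0.40 ± 0.28. Their 4 measured receptor genes had a median of -0.15, and 1 was entirely above and 1 entirely below DMSO roots. That median was -0.21 without DMSO root replicate 3, -0.09 without DMSO root replicate 1 and -0.07 without estradiol root replicate 3. FER, the root growth regulator FERONIA, had 9.59, 9.56 and 9.43 in estradiol roots, against 9.56, 9.79 and 9.58 in DMSO roots, with overlapping groups and a difference of -0.12 ± 0.13. THE1, THESEUS1, a monitor of wall integrity, was -0.22 ± 0.18 and ANX1 and ANX2, known from pollen tubes, were 0.23 ± 0.14 and -0.19 ± 0.31. The 84 egg cell, LURE and low molecular weight cysteine-rich peptide genes, most of them dim, had a median of 0.05, with 6 members entirely above and 7 entirely below DMSO roots. Next to EC1.2, LCR47 and LCR22 had differences of -0.44 ± 0.10 and -0.38 ± 0.14.

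The hormone lists held few genes. Type-A response regulators, cytokinin-induced proteins that damp cytokinin signalling, were represented by a pair of genes. ARR15 had 2.97, 3.07 and 3.76 in estradiol roots, against 4.52, 3.78 and 4.13 in DMSO roots, and RR16 had 3.99, 3.85 and 2.90 in estradiol roots, against 4.20, 4.26 and 4.49 in DMSO roots. Estradiol values were all lower in each gene, by -0.88 ± 0.21 and -0.74 ± 0.25, with adjusted p of 0.71 and 0.89, and the differences were -0.89 and -0.65 without DMSO root replicate 3. Relative to DMSO roots 1 and 2, DMSO shoots held them 2.13 and 4.01 log2 units higher. The shoot signal given above was also lower in all estradiol roots than in DMSO root replicates 2 and 3, but higher than in DMSO root replicate 1. That replicate had the highest ARR15 value and the lowest RR16 value of the DMSO roots. The part of shoot signal in these values was not tested. Type-B and pseudo response regulators had a median of -0.05 over 6 genes. The type-B regulator RR21 stood at 2.12, 2.42 and 2.24 in estradiol roots, against 1.29, 1.90 and 2.04 in DMSO roots, a difference of 0.51 ± 0.19, and RR24 at -0.40 ± 0.27, so members of that group lay on both sides. Auxin genes were near 0: the 8 Aux/IAA repressor genes had a median of 0.01 with 0 members apart, and among 4 YUC genes of auxin synthesis YUC11 was the one with separate groups, at 0.27 ± 0.13. GH3 enzymes, which join amino acids to auxin, jasmonate and related acids, had a median of 0.00 over 15 genes. Besides AT1G23160, GH3.9 had separate groups, at 4.46, 4.38 and 4.44 in estradiol roots, against 4.76, 4.74 and 4.58 in DMSO roots, a difference of -0.27 ± 0.18.

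Gibberellin-regulated GASA peptides held 8 measured genes with a median of 0.03. AT1G22690 of that family had 6.33, 6.74 and 6.48 in estradiol roots, against 6.08, 5.90 and 5.76 in DMSO roots, a difference of 0.61 ± 0.13 and 0.53 without DMSO root replicate 3, and it exceeded its level in DMSO roots 1 and 2 by 4.33 log2 units in DMSO shoots. The shoot signal given above was lower in all estradiol roots than in DMSO root replicates 2 and 3, but higher than in DMSO root replicate 1. Its part in this value was not tested. Cold and abscisic acid responsive proteins had a median of -0.08 over 12 genes with 0 members apart. COR15A, a chloroplast protein of cold acclimation, was the most variable of them, with 5.46, 5.89 and 5.01 in estradiol roots, against 5.08, 7.68 and 6.41 in DMSO roots, and was named after its values were seen.

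Class III peroxidases, secreted enzymes that cross-link or loosen wall polymers with hydrogen peroxide, were the largest wall family measured, with 64 of 73 listed genes. At an unadjusted p under 0.05, 8 members (12.5%) were lower and 0 higher, beside 2.79% and 2.38% of all genes. Entirely separate groups were found in 11 members (17.2%) on the lower side and 2 (3.12%) on the higher side, beside 7.05% and 5.29%. The median of all 64 was nonetheless just -0.04, so most of the family stood where all genes did. Most of the lowest members were root-enriched, and so was the family as a whole. The family median in DMSO shoots was -2.30 log2 units relative to DMSO roots 1 and 2. AT5G64110, a lower member given below, was 1.45 higher in those shoots. AT1G14550 had 5.60, 6.12 and 5.38 in estradiol roots, against 6.49, 6.67 and 6.89 in DMSO roots, a difference of -0.98 ± 0.32. AT5G39580 had 6.29, 5.64 and 5.58 in estradiol roots, against 6.31, 6.90 and 6.71 in DMSO roots, a difference of -0.80 ± 0.20. AT5G64100, AT5G64110 and AT5G64120 follow each other directly on chromosome 5 in the RefSeq gene order. AT5G64110 had 4.52, 4.27 and 4.43 in estradiol roots, against 5.33, 4.85 and 5.03 in DMSO roots, a difference of -0.66 ± 0.16, and AT5G64100 had 9.70, 9.33 and 9.48 in estradiol roots, against 10.06, 10.04 and 10.09 in DMSO roots, a difference of -0.56 ± 0.19. All 3 neighbours had separate groups, and whether their probe sets cross-hybridise was not tested. Without DMSO root replicate 3 the counts at an unadjusted p under 0.05 were 6 lower and 0 higher, and the median was -0.07.

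Hybrid proline-rich lipid transfer-like proteins, small secreted proteins with a lipid transfer domain, gave 14 measured genes of 21 listed and a median of -0.13. Of its members 1 (7.14%) was entirely above and 3 (21.4%) entirely below DMSO roots, beside 5.29% and 7.05% of all genes. These 3 lower members lie within a cluster on chromosome 4, in which 1 to 2 other genes separate listed neighbours. Whether their probe sets cross-hybridise was not tested. AT4G12490 had 6.17, 6.42 and 6.30 in estradiol roots, against 7.16, 6.94 and 7.22 in DMSO roots, a difference of -0.81 ± 0.26. AT4G12500 had 7.99, 8.02 and 7.55 in estradiol roots, against 8.46, 8.80 and 8.41 in DMSO roots, a difference of -0.70 ± 0.28. All 3 were strongly root-enriched, with AT4G12500 at -6.48 log2 units in DMSO shoots relative to DMSO roots 1 and 2. Root-enriched genes in general leaned to the lower side, as given for the peroxidases. The family median was -0.11 without DMSO root replicate 3 and -0.29 without estradiol root replicate 2.

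Enzymes that remodel xyloglucan, the XTH family, had a median of -0.14 over 10 genes, of which 2 were above 0. XTH33, a membrane-anchored member, had 5.28, 5.26 and 5.30 in estradiol roots, against 5.95, 5.85 and 6.21 in DMSO roots. Its estradiol values were nearly equal and all below DMSO, with a difference of -0.72 ± 0.31 and -0.62 without DMSO root replicate 3. XTH16 was -0.26 ± 0.20, also with separate groups, and the family median without that array was -0.06. Expansins, proteins that loosen walls without cutting them, had a median of 0.00 over 23 genes. EXPA16 had 4.46, 4.17 and 3.76 in estradiol roots, against 4.60, 4.79 and 4.59 in DMSO roots, a difference of -0.53 ± 0.16, whereas EXLA3 lay above DMSO roots by 0.40 ± 0.20. Extensins, hydroxyproline-rich wall glycoproteins that root hairs use in quantity, had a median of 0.05 over 16 genes. Without DMSO root replicate 3, 1 member was higher at an unadjusted p under 0.05. With all arrays 2 members (12.5%) were higher and 0 lower at that p, beside 2.38% and 2.79% of all genes. These were AT4G08380, with 3.31, 4.50 and 4.06 in estradiol roots, against 3.16, 3.5031 and 2.84 in DMSO roots, and AT1G26250, at differences of 0.79 ± 0.30 and 0.29 ± 0.12 with overlapping groups. The members AT3G22800 and AT5G06630 stood apart in opposite directions, at -0.45 ± 0.23 and 0.30 ± 0.16. Each is 6.25% of the list, near the 7.05% and 5.29% of all genes. Cellulose synthase-like, endoglucanase and wall acetylation families had medians of -0.02, 0.05 and 0.00.

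**Figure D3:**
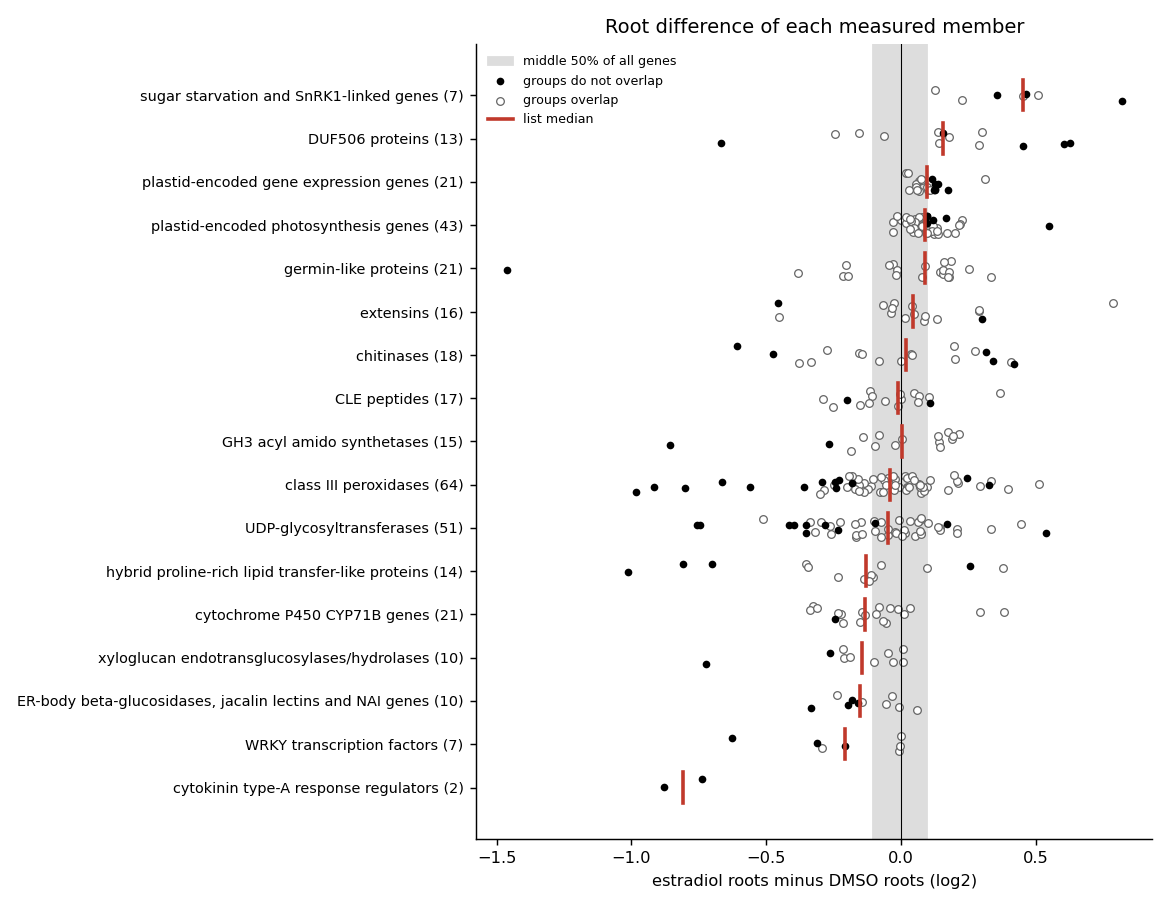
Estradiol roots minus DMSO roots (log2) for each measured member of 17 families or function lists, with the number of members in brackets, filled points where the groups do not overlap, a red bar at the list median and a grey band for the middle 50% of all genes. The sugar starvation genes all lie above 0, and the WRKY and type-A response regulator medians lie furthest below, at -0.21 and -0.81.

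Defence-linked families were mixed. WRKY transcription factors, which act in defence, senescence and phosphate responses, gave 7 genes found by symbol, with a median of -0.21. Of these, 3 (42.9%) were entirely below DMSO roots, beside 7.05% of all genes. WRKY42 had 6.83, 7.19 and 7.21 in estradiol roots, against 7.99, 7.37 and 7.74 in DMSO roots, a difference of -0.63 ± 0.18. WRKY6, which with WRKY42 is known for repressing the phosphate exporter gene PHO1, had 9.37, 9.51 and 9.22 in estradiol roots, against 9.69, 9.74 and 9.62 in DMSO roots, a difference of -0.31 ± 0.09. Both were root-enriched, and WRKY47 followed at -0.21 ± 0.11. The family median was -0.17 without DMSO root replicate 3. Chitinases, which cut fungal wall polymers, had a median of 0.02 over 18 genes. Their 5 members with separate groups split into 2 lower and 3 higher. AT2G43590 had 7.40, 7.60 and 6.91 in estradiol roots, against 7.61, 7.83 and 7.89 in DMSO roots, a difference of -0.47 ± 0.18, while AT2G43610 from the same gene cluster on chromosome 2 had 10.22, 10.38 and 10.18 in estradiol roots, against 9.87, 9.94 and 9.71 in DMSO roots, a difference of 0.42 ± 0.21. Germin-like proteins, cupin-fold proteins of the wall, had a median of 0.09 over 21 genes. AT5G38910 was the sole germin-like member whose groups did not overlap.

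The ER body, a root and seedling compartment that stores defence glucosidases, was represented by 10 genes with a median of -0.15. Of these, 1 was above 0 and 4 (40.0%) were entirely below DMSO roots, beside 7.05% of all genes. NAI1, the transcription factor needed for ER bodies, had 6.91, 6.98 and 7.14 in estradiol roots, against 7.29, 7.33 and 7.41 in DMSO roots, a difference of -0.33 ± 0.18. NAI2, an ER body protein, had 12.27, 12.20 and 12.22 in estradiol roots, against 12.36, 12.39 and 12.41 in DMSO roots. Those 3 estradiol values were all lower, by -0.16 ± 0.11. The jacalin lectin genes JAL33 and JAL22, whose products bind to the stored glucosidases, were -0.20 ± 0.10 and -0.18 ± 0.10. Differences in this set were small, and 0 members had an unadjusted p under 0.05. The set median in DMSO shoots was -2.81 log2 units relative to DMSO roots 1 and 2. Root-enriched genes in general leaned to the lower side, as given for the peroxidases.

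UDP-glycosyltransferases, which attach sugars to flavonoids, lignin precursors and hormones, gave 51 genes with a median of -0.05. At an unadjusted p under 0.05, 6 members (11.8%) were lower and 2 (3.92%) higher, beside 2.79% and 2.38% of all genes. Groups were separate in 9 (17.6%) on the lower side and 2 (3.92%) on the higher side, beside 7.05% and 5.29%. Those counts at an unadjusted p under 0.05 were 5 lower and 1 higher without DMSO root replicate 3. UGT78D2, a flavonoid 3-O-glucosyltransferase gene, had 3.37, 3.68 and 4.22 in estradiol roots, against 4.46, 4.67 and 4.42 in DMSO roots, a difference of -0.76 ± 0.21. UGT72E2, which glucosylates monolignols, had 3.80, 4.31 and 4.22 in estradiol roots, against 4.97, 4.76 and 4.84 in DMSO roots, a difference of -0.75 ± 0.25. UGT76E12 was -0.41 ± 0.12. CYP71B cytochrome P450 genes had a median of -0.13 over 21 genes, with 17 below 0 but 1 with separate groups. Glutathione S-transferases, which detoxify reactive compounds, had a median of -0.08 over 15 genes, with GSTU18 at 0.23 ± 0.11 and GSTU25 at -0.49 ± 0.27. Beta-glucosidases had a median of -0.00 over 24 genes. BGLU32 had 3.05, 2.54 and 2.79 in estradiol roots, against 1.88, 2.28 and 2.30 in DMSO roots, a difference of 0.64 ± 0.16, and BGLU46, a monolignol glucosidase gene, was 0.34 ± 0.15.

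Sugar starvation genes, a programme linked to the kinase SnRK1 when carbon runs short, had the highest median of the 64 lists with at least 3 measured genes, 0.45 over 7 of 21 listed. All 7 were above 0, beside 48.0% of all genes, and 3 (42.9%) were entirely above DMSO roots, beside 5.29%. The RING-type ubiquitin ligase gene ATL8 had 4.29, 3.68 and 4.28 in estradiol roots, against 3.66, 2.99 and 3.15 in DMSO roots, a difference of 0.82 ± 0.24 with an adjusted p of 0.84. AT5G19120 had 8.32, 7.93 and 7.75 in estradiol roots, against 7.75, 7.50 and 7.35 in DMSO roots, a difference of 0.46 ± 0.18. AT3G15630 had 8.81, 8.58 and 8.53 in estradiol roots, against 8.45, 8.30 and 8.11 in DMSO roots, a difference of 0.35 ± 0.22. In each of these genes every estradiol array lay above every DMSO array. The margin was nearly a tie in AT5G19120, at 7.7507 against 7.7494, and small in ATL8, at 3.68 against 3.66. AT3G15450 had 10.96, 10.27 and 10.38 in estradiol roots, against 10.34, 9.78 and 9.96 in DMSO roots, and AT4G27450 had 8.37, 7.63 and 8.06 in estradiol roots, against 7.94, 7.19 and 7.56 in DMSO roots. In both, replicate 1 was the highest array of its treatment and the groups overlapped, at differences of 0.51 ± 0.27 and 0.45 ± 0.26. AKINBETA1, a regulatory subunit of SnRK1, was 0.23 ± 0.19 and MCCB, of leucine breakdown, 0.13 ± 0.13. The list median was 0.37 without DMSO root replicate 3 and 0.28 to 0.57 over the 6 choices of 1 array left out. The list was drawn up with the shoot results known, where its median was 1.16.

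DUF506 proteins, a plant family named for a domain of unknown function, had all 13 listed genes measured and a median of 0.16. At an unadjusted p under 0.05, 3 members (23.1%) were higher and 1 (7.69%) lower, beside 2.38% and 2.79% of all genes. Of the members, 4 (30.8%) were entirely above and 1 (7.69%) entirely below DMSO roots, beside 5.29% and 7.05%. AT4G32480 had 8.81, 8.17 and 8.42 in estradiol roots, against 8.09, 7.64 and 7.86 in DMSO roots, a difference of 0.60 ± 0.17. AT2G20670 had 6.50, 6.15 and 6.12 in estradiol roots, against 5.93, 5.60 and 5.36 in DMSO roots, a difference of 0.63 ± 0.20. AT3G07350 had 6.20, 6.04 and 5.94 in estradiol roots, against 5.66, 5.73 and 5.45 in DMSO roots, a difference of 0.45 ± 0.15. These 3 genes had adjusted p of 0.84, 0.88 and 0.89 in roots, and without DMSO root replicate 3 they differed by 0.61, 0.49 and 0.37. In shoots they passed the test, at 1.17, 1.28 and 1.22 with adjusted p of 0.034, 0.040 and 0.021 (limma). The list was chosen with earlier results of these data known. AT1G77160, a dim member on chromosome 1, lay entirely below DMSO roots, at -0.67 ± 0.23.

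Sugar transporters did not share one direction. SWEET exporters had a median of -0.08 over 14 genes. SWEET6 and SWEET8 stood entirely above DMSO roots, at 0.63 ± 0.26 and 0.41 ± 0.17, but at levels under 3 on the log2 scale in every array, and the vacuolar SWEET17 was -0.11 ± 0.12. ERD6-like transporters, vacuolar sugar carriers, had a median of -0.03 over 15 genes. AT3G05160 had 5.01, 5.03 and 4.92 in estradiol roots, against 4.35, 4.76 and 4.78 in DMSO roots, a difference of 0.36 ± 0.14, whereas AT1G19450 and AT4G04750 were -0.20 ± 0.10 and -0.17 ± 0.11. Tonoplast sugar transporters, starch and sucrose enzymes, and autophagy genes had medians of -0.13, -0.04 and -0.03. Enzymes of the tricarboxylic acid cycle and citrate lyase had a median of -0.05 over 15 genes. Of these, 4 (26.7%) were entirely below and 1 (6.67%) entirely above DMSO roots, beside 7.05% and 5.29% of all genes. IDH-V, an isocitrate dehydrogenase subunit gene, had 9.69, 9.60 and 9.54 in estradiol roots, against 9.77, 9.90 and 9.70 in DMSO roots, a difference of -0.18 ± 0.09.

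Root tissue and nutrition genes were thinly covered. Of 16 listed root hair genes, 2 were measured. EXPA7, an expansin of growing root hairs, had 7.39, 7.22 and 7.26 in estradiol roots, against 7.04, 7.43 and 7.29 in DMSO roots, and EXPA18 had 8.25, 8.36 and 8.06 in estradiol roots, against 8.41, 8.29 and 8.51 in DMSO roots. Both were bright in every root array, with overlapping groups and differences of 0.03 ± 0.23 and -0.18 ± 0.34. Lateral root genes overlapped between groups as well: LBD16, an auxin-induced regulator of lateral root initiation, had 6.96, 6.71 and 6.92 in estradiol roots, against 6.62, 6.54 and 6.87 in DMSO roots, LBD29 differed by 0.05 ± 0.20 and PUCHI by -0.21 ± 0.16. Iron genes had a median of -0.06 over 12 of 31 listed, with 0 members apart. Their lowest difference was that of AT1G47400, with 4.94, 6.41 and 5.69 in estradiol roots, against 5.81, 6.83 and 6.61 in DMSO roots, overlapping groups at -0.74 ± 0.59. Nitrate and nitrogen genes had a median of 0.04 over 7 of 19, with 1 member entirely below DMSO roots. CC-type glutaredoxins, small redox proteins several of which answer to nitrogen, had a median of -0.03 over 20 genes. AT3G21460 was the member with separate groups, at 0.17 ± 0.13. Of 9 CHX cation exchanger genes, 2 were entirely above and 1 entirely below DMSO roots. CHX16 had 7.94, 7.68 and 7.62 in estradiol roots, against 8.19, 8.18 and 8.10 in DMSO roots, a difference of -0.41 ± 0.14, while the dim CHX23 was 0.54 ± 0.16. The zinc-deficiency regulator bZIP19 had 9.37, 9.35 and 9.06 in estradiol roots, against 9.45, 9.60 and 9.47 in DMSO roots, a difference of -0.25 ± 0.10.

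Plastid-encoded transcripts shared a small upward offset. Of 43 photosynthesis genes encoded in the plastid, 40 were above 0, with a median of 0.09. Among them 6 (14.0%) were entirely above DMSO roots, beside 5.29% of all genes. All 21 plastid genes for ribosomal proteins, RNA polymerase and related functions were above 0, with a median of 0.10. Of these, 7 (33.3%) were entirely above DMSO roots, beside the same 5.29%. The psbT gene, for a small photosystem II subunit, had 9.64, 9.84 and 9.47 in estradiol roots, against 9.03, 9.41 and 8.88 in DMSO roots, a difference of 0.55 ± 0.21. The others were smaller: ndhC, psbH, rps2, clpP and rpoA differed by 0.17, 0.12, 0.17, 0.14 and 0.12. Seen by array, the photosynthesis list had medians of 11.95, 12.16 and 11.87 in estradiol roots, against 11.73, 12.13 and 11.83 in DMSO roots, which overlap. Without DMSO root replicate 3 the medians of the 2 lists were 0.05 and 0.06. Nuclear genes of the photosystems and Calvin cycle had a median difference of -0.0013, beside the -0.0069 of all genes. CHLM, of chlorophyll synthesis, was their sole member with separate groups, at 0.17 ± 0.07. Many plastid genes share transcripts, so they are not independent of each other.

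In 55 of the 64 lists with at least 3 measured genes the median lay within 0.1 of 0. Those near 0 included ubiquitin-conjugating enzymes, ubiquitin-specific proteases, subunits of the RNA polymerases, Mediator, tubulins and kinesins, IQD and TRM microtubule proteins, exocyst and ESCRT proteins. Single members stood apart in otherwise level lists. HTB2, a histone H2B gene, had 5.91, 5.97 and 6.04 in estradiol roots, against 6.17, 6.22 and 6.22 in DMSO roots, a difference of -0.23 ± 0.10. The subtilase gene SBT3.5 had 4.91, 4.55 and 4.24 in estradiol roots, against 5.01, 5.28 and 5.16 in DMSO roots, a difference of -0.58 ± 0.21.

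**Figure D4:**
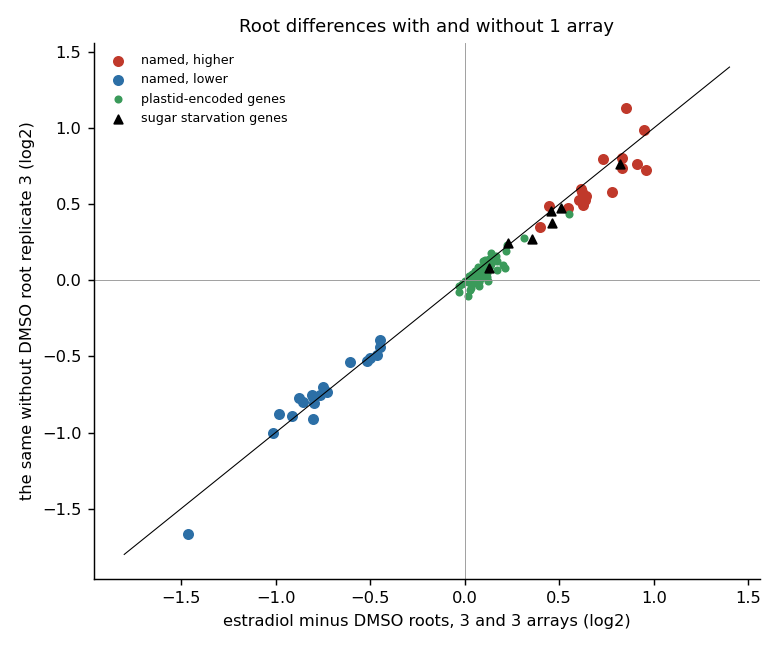
Estradiol minus DMSO roots (log2) with all 6 arrays on the x axis and without DMSO root replicate 3 on the y axis, for the 36 named genes, the plastid-encoded genes and the sugar starvation genes; the line marks equal values. The named genes have separate groups, which fixes their sign on both axes, and AT5G38910 lies lowest on both axes at -1.46 and -1.67.

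Without DMSO root replicate 3, 14427 of all 16550 genes kept the sign of their difference. Genes that DMSO shoots held at least 2 log2 units above DMSO roots 1 and 2 numbered 683 (4.13% of all), a choice that shares DMSO roots 1 and 2 with the root comparison. Their median root difference was -0.00043 with DMSO root replicate 3 and 0.022 without it. Such genes made up 8.88% of the 394 genes higher at an unadjusted p under 0.05 and 7.59% of the 461 lower ones.

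Shoot values of the same experiment were set beside the root values. The root and shoot comparisons share no array. Of the 17 genes named as higher in roots, 14 were also above 0 in shoots, with a median shoot difference of 0.36, and of the 19 named as lower, 8 were above 0 in shoots, with a median of -0.0042. Over all genes 49.2% were above 0 in shoots, against 65.3% of the 875 genes entirely higher in estradiol roots and 38.7% of the 1166 entirely lower ones. The 22 genes that rose in estradiol shoots under the same test had a median root difference of 0.30. Of these, 20 were above 0 in roots, beside 48.0% of all genes, and 12 were entirely above DMSO roots, beside 5.29%. The 5 genes that fell in shoots had a root median of -0.0081. The difference between the root and the shoot effect passed the test for 0 genes (0.0%; smallest adjusted p 0.45, limma), with 325 genes higher and 570 lower at an unadjusted p under 0.05. Under limma's trend and robust setting 1 gene passed, AT1G17147, with a difference of 0.18 in roots and 1.07 in shoots. None of the named root genes is thus shown to respond in roots alone.

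**Figure D5:**
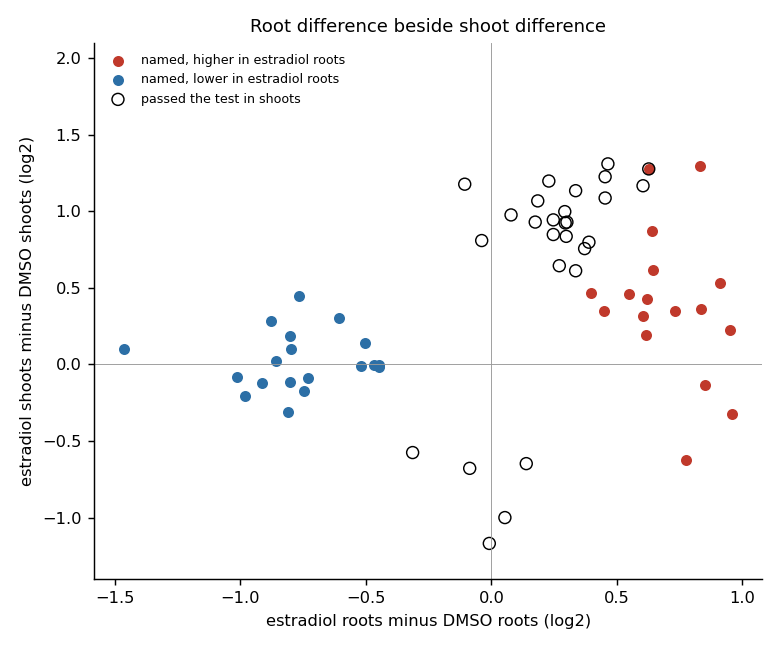
Estradiol minus DMSO (log2) in roots on the x axis and in shoots on the y axis, for the genes named in roots (filled) and the 27 genes that passed the test in shoots (rings). Rings above 0 on the y axis lie mostly right of 0 on the x axis, and the genes named as lower scatter around 0 in shoots, from -0.31 in AT4G12490 to 0.45 in AT2G15220.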

How the data were processed

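Total RNA was measured on 12 single-colour Affymetrix arrays, and 6 of them, 3 of estradiol roots and 3 of DMSO roots, form the comparison. The deposited values are log2 signals per probe set and array, and the submitters' processing notes name Affymetrix Expression Console 1.3. How signals were summarized, background-corrected and normalized is not given in the sources used here. Probe sets were named through the platform annotation. Of 38408, 16722 (43.5%) had 1 gene, 759 several and 20927 none. The probe set with the highest mean stood for each of 16550 genes. Symbols came from the RefSeq TAIR10.1 gene table, which held 16411 of them.

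Limma 3.58.1 (R 4.3.3, lmFit and eBayes) fitted a mean per group to all 12 arrays, with 8 residual degrees of freedom, no filter and Benjamini-Hochberg adjustment over all genes. The code was tested on simulated data. The 71 lists and the members were chosen with earlier results of these data known. Of these lists, 4 had no measured gene. Named genes were, among those with separate groups, the 12 smallest p and the 8 largest differences (at or above the median level) in each direction, up to 3 members a list, and every member of lists of at most 4. Others (CLE44, CLE1, CLE14, COR15A, AT5G64100, AT3G15450, AT4G27450, AKINBETA1, MCCB, NAI2, AT1G77160, AT1G47400, AT4G08380, AT1G26250, AT1G17147) were picked after their values were seen. No label says that replicate numbers mark pairs, so they were not treated as pairs. Same-numbered root arrays nonetheless correlated at 0.075, 0.078 and 0.054 in their deviations from group means. Estradiol and DMSO root arrays of different number correlated at -0.085 to 0.0066. Any shift shared by same-numbered arrays therefore counts as spread in the SEs given here. The alternatives were the root arrays alone, a replicate block, trend and robust settings, array weights, 2 normalizations, a dim-gene filter, other probe set rules, a threshold of 0.10 and each root array left out. The result of 1 list is not reported here.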

Additional observations from a re-analysis of the deposited data

How the results depend on the processing

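The count of 0 genes called in roots held under all 16 alternatives, with a smallest adjusted p of 0.053 under trend and robust settings. For the difference between organs the count was 0 in all but 1 alternative: trend and robust settings called 1 gene, AT1G17147, at an adjusted p of 0.046. With each root array left out in turn, both counts stayed at 0 (lowest 0, highest 0). Counts at an unadjusted p under 0.05 moved more. They were 394 higher and 461 lower in the main fit, 582 and 303 with array medians subtracted, so that 65.8% in place of 46.1% were higher, 373 and 364 after quantile normalization, 605 and 678 with array weights, and 192 and 328 among genes at or above the median level. With a replicate block they were 520 and 544, against 0 calls, and each root array correlated best with its own number, a hint from the data and not from the design. The 36 genes chosen by p or size have separate groups, so their sign cannot turn when 1 array is left out. RPN12a reversed to 0.000742 after quantile normalization and 0.030 with array medians subtracted, and its values ran from -0.045 to 0.024 with 1 array left out. LBD29 ran from -0.095 to 0.15, EXPA7 from -0.070 to 0.12 and MCCB from -0.0015 to 0.24 in the same way. Of 637 list medians recomputed, 11 moved by more than the spread between arrays. With 3 arrays a group and no probe-level files used here, small differences in dim genes cannot be resolved.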
